A study of Mus musculus with 6 samples.

Results

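In mouse cornea, 40 genes of striated muscle were followed, and all 40 were found among the 22007 gene symbols of the count tables. They were taken from a list of sarcomere, calcium handling and energy genes and grouped by the muscle in which each is known to be used. The groups were heart (8 genes), heart and slow skeletal muscle (6), slow skeletal muscle (2), fast skeletal muscle (16), extraocular and developing muscle (2), and heart and skeletal muscle alike (6). The corneas came from male C57BL/6J mice. One group, OFBI, had been exposed while awake to a single open-field blast, a charge of 350 g of C-4 at a distance of 3 m, and was sampled 12 months later. The other group, Naive, carried the same 12-month label. There were 3 libraries per group, each from pooled corneas and named a biological replicate in the series, so p-values measure the spread between pools.

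Striated muscle contracts when myosin heavy chains pull on actin filaments. Calcium from the sarcoplasmic reticulum switches this on through the troponin complex, and titin and nebulin set the length of the filaments. Heart, slow and fast fibres use different genes for most of these parts, and the muscles that move the eye add a myosin heavy chain of their own, Myh13. The cornea itself holds no striated muscle, while the extraocular muscles attach to the sclera behind it.

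The Naive libraries held 41971752 to 47809779 estimated counts and the OFBI libraries 3410476, 3355422 and 1173472 in replicates 1, 2 and 3, a mean depth 16.7 times lower. Where these tables have few counts, about 4 counts appear to stand for 1 fragment. A library at 0 was therefore given a floor of 12 counts, which is 3.71, 3.84 and 11.2 CPM (counts scaled by library size) in OFBI replicates 1, 2 and 3 and at most 0.264 CPM in a Naive library. Floors and counting intervals cover counting error only. Of 12 corneal markers, at least 11 had counts in each library, 3 were called higher after OFBI and 3 lower, against 8.41% and 10.4% of all genes tested. Their summed level, most of it from Krt12, Krt5 and Aldh3a1, was 28605 to 29622 CPM in the Naive and 57344 to 75795 CPM in the OFBI libraries, and Krt12, the cornea-specific keratin, rose by 1.35 ± 0.15 on the log2 scale (SE, edgeR adjusted p = 0.00666). Slc4a11, a transporter of the corneal endothelium, fell by 2.29 on the log2 scale (edgeR adjusted p = 0.0233), and Kera, a proteoglycan of the corneal stroma, had 0, 20 and 0 OFBI counts. Col8a2, a collagen gene on the same list, had a log2 change of 0.33. Neither Kera nor Col8a2 was called.

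After OFBI, several heart genes stood well above their Naive level, most of all in replicates 1 and 3, and much less or not at all in replicate 2. Of the 8 heart genes, Myh6, Tnnt2, Tnni3 and Nppa were called higher. Skeletal muscle genes were present in all 6 libraries, and their direction differed from gene to gene. The extraocular myosin gene Myh13 was found in all 3 Naive libraries and at 0 in OFBI replicates 1 and 2. Over all 40 members, 39 could be tested, and 12 were called higher and 3 lower (quasi-likelihood test of edgeR, adjusted p below 0.05). Of all 13941 genes tested, 8.41% were called higher and 10.4% lower. The fitted log2 fold change of OFBI over Naive, called the log2 change from here on, had a median of 0.77 over the 39 and of -0.20 over all tested genes. Of the 13 tested heart-type genes, 5, namely Myh6, Nppa, Myl7, Pln and Tnnc1, reached the filter on low counts in fewer than 3 Naive libraries. They were tested in part because of their OFBI counts, and Nppa, which reached it in no Naive library, only because of them. The number of heart-type genes called higher is therefore a description only. In bulk tissue, fewer cells of a type and less RNA per cell cannot be told apart.

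The edgeR calls needed all 3 Naive libraries. When Naive replicate 1, 2 or 3 was left out, edgeR called 0 members and 106, 0 and 104 genes of any kind. At an unadjusted p below 0.05, 12, 12 and 13 members were then higher and 1, 2 and 1 lower, where 2611, 2441 and 2615 of 12099, 12094 and 12113 genes differed in either direction. DESeq2 called 12 members higher and 1 lower each time, and 1845, 1489 and 1651 genes in either direction. Every adjusted p that follows is from edgeR with all 6 libraries, unless the sentence names another setting.

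**Figure D1:**
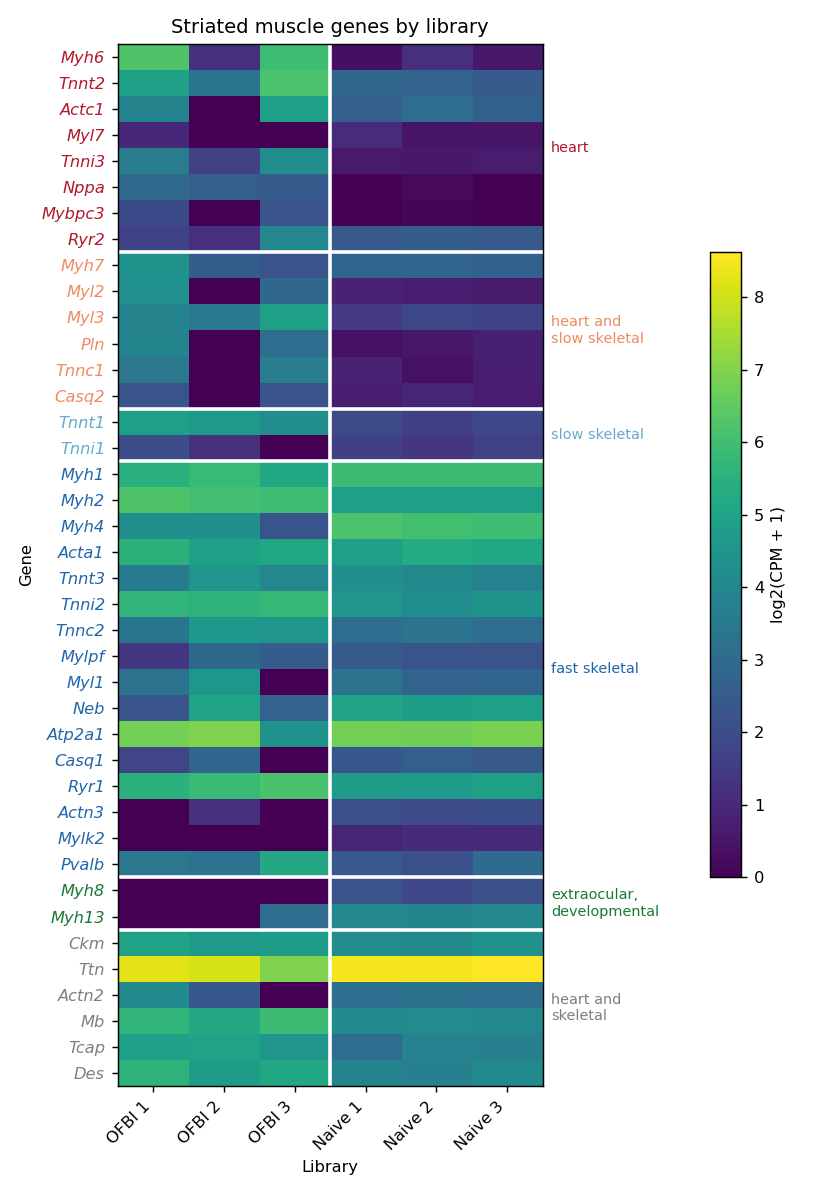
Level of each of the 40 genes in each of the 6 libraries, as log2(CPM + 1), with genes in rows, coloured by group, and libraries in columns. Heart genes such as Myh6 and Tnnt2 are brighter in OFBI replicates 1 and 3 than in OFBI replicate 2 and the Naive libraries, whereas Myh4 and Myh13 are brighter in the Naive libraries.

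The promoters of 4 genes are shown because their genes stand for the different patterns described in the following paragraphs. Myh6 and Myl3 are heart-type genes with high OFBI counts, Acta1 is a skeletal gene at a like level in both groups, and Myh4 is a fast skeletal gene that was lower after OFBI. Each run is the 150 bases before the annotated start, 5′ to 3′ on the strand of the gene, from RefSeq on GRCm38.p6. Capitals mark the CArG box, which is bound by serum response factor, and the TATA motif TATAAA.

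Myh6 (chr14:54966608-54966757, minus strand): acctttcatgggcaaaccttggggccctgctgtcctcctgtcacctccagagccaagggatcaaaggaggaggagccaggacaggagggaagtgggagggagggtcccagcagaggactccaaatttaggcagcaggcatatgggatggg

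Myl3 (chr9:110763528-110763677, plus strand): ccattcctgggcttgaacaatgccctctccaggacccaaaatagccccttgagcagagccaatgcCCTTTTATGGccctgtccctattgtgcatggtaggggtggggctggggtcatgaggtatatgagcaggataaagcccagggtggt

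Acta1 (chr8:123894776-123894925, minus strand): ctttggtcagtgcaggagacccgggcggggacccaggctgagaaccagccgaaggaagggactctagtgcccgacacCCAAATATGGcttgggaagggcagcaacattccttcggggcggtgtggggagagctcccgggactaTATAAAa

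Myh4 (chr11:67237662-67237811, plus strand): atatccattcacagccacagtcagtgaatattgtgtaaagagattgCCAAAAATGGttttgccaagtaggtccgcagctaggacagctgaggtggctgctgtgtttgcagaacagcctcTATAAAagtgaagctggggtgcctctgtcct

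The CArG box starts 85 bases before the start of Myl3, 73 before that of Acta1 and 104 before that of Myh4. It thus occurred in genes that rose, held a like level and fell, and no match was found in this window of Myh6. Promoters were found for 34 of the 40 members, the exceptions being Tnnt3, Tnni2, Neb, Actn3, Mylk2 and Tcap. In the 250 bases before the start, on either strand, 5 of the 34 held a CArG box (Acta1, Actc1, Myh4, Myl3 and Myl7), against 1.47% of 32851 promoters of all genes. The motif of the MEF2 factors occurred in 7 of the 34 (Casq2, Mybpc3, Myh1, Myh4, Myh8, Pvalb and Ttn), against 2.92% of all promoters. The MCAT motif CATTCC occurred in 10 of 34 against 12.6%, the E-box CANNTG in 30 of 34 against 66.2%, TATAAA in 9 of 34 against 12.4%, and the GATA motif AGATAA in 3 of 34 against 9.99%. A member with several start sites counted as a match when any of them matched, which applies to Tnnt2, Myh7, Myl2, Pvalb, Tnni1 and Mb. The shares over all promoters count each start site on its own, so the measures differ somewhat. Matches are letters in a window and were not tested for binding.

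Myh6, the alpha heavy chain of heart myosin and the main one of the adult mouse heart (chromosome 14, 54941921 to 54966927, GRCm38), had the largest log2 change of the heart genes after Nppa. OFBI replicates 1, 2 and 3 held 240, 4 and 65 estimated counts of it, and the Naive replicates 14, 59 and 22, although the Naive libraries were many times deeper. At the Naive level, 2.16, 2.08 and 0.713 counts would have been found in the 3 OFBI libraries. OFBI replicates 1 and 3 stood far above every Naive library, and OFBI replicate 2, with 4 counts, lay barely above the highest of them in CPM (1.28 against 1.27 CPM). The means were 45.4 ± 38.8 CPM after OFBI and 0.678 ± 0.525 CPM in Naive corneas (SD, n = 3), a log2 change of 6.04 (SE 1.33, edgeR adjusted p = 0.0270). Without OFBI replicate 1 it was 5.37 (edgeR adjusted p = 0.0665), and without OFBI replicate 2 it was 6.60 (edgeR adjusted p = 0.0131). With a trend on GC content and transcript length taken out the adjusted p was 0.0506 by edgeR, in a range of 2.32e-06 to 0.122 over 14 alternatives.

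Tnni3, which encodes heart troponin I, the inhibitory subunit (chromosome 7, 4518305 to 4524229), had 37, 7 and 19 counts after OFBI and 28, 24 and 26 in the Naive replicates. All 3 OFBI libraries lay above all 3 Naive libraries in CPM, with OFBI replicate 2 again the lowest of the OFBI group. The means were 10.5 ± 7.81 and 0.548 ± 0.0280 CPM (SD, n = 3), and the log2 change was 4.20 (SE 0.84, edgeR adjusted p = 0.0225). Leaving out OFBI replicate 1, 2 or 3 gave log2 changes of 3.94, 4.64 and 3.62, each of which passed. Its exons overlap those of Dnaaf3 on the same strand over 4.17% of their length, so a few reads may be shared.

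Tnnt2, the heart form of troponin T, which ties the complex to tropomyosin (chromosome 1, 135836354 to 135852260), had 95, 28 and 76 counts after OFBI and 331, 261 and 205 in the Naive replicates. The groups did not overlap, with 29.4, 8.96 and 71.1 CPM after OFBI and 4.52 to 6.54 CPM in Naive corneas. Its log2 change was 2.66 (SE 0.70, edgeR adjusted p = 0.0406). Without OFBI replicate 1 it was 2.73 (edgeR adjusted p = 0.0758) and without OFBI replicate 3 it was 1.77 (edgeR adjusted p = 0.0432), in a range of adjusted p from 0.00123 to 0.167 over 16 alternatives.

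Nppa encodes atrial natriuretic peptide, a hormone released by the atria (chromosome 4, 148000722 to 148002079). It had 22, 16 and 5 counts in the OFBI replicates, in the order of their depth, and 0, 8 and 0 in the Naive replicates. Nppa was the heart gene most alike between the OFBI libraries, at 6.80, 5.12 and 4.68 CPM, and OFBI replicate 2 was not the lowest here. Over summed libraries the OFBI level was 103 times the Naive level, with a 95% counting interval of 22.4 to 959, since the Naive group held only about 2 fragments. The fitted log2 change was 6.50 (SE 1.30, edgeR adjusted p = 0.0222) and passed without each OFBI library in turn. Nppa reached the filter on low counts in no Naive library. It was tested only because of its OFBI counts, so its call is a description only. An antisense gene, Gm13054, overlaps 61.5% of the exon bases of Nppa, and whether the counting used strand is not stated in the labels.

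The other heart genes were less clear. Mybpc3, heart myosin-binding protein C, had 9, 0 and 4 counts after OFBI and 0, 4 and 0 in Naive corneas, too few to be tested with all 6 libraries, and its summed level was 62.3 times higher with a 95% counting interval of 5.34 to 3208. Actc1, heart alpha-actin, had 44, 0 and 30 counts after OFBI and 259, 350 and 244 in the Naive replicates, so that OFBI replicates 1 and 3 lay above and replicate 2 below the Naive range of 5.12 to 7.55 CPM. It was not called (log2 change 1.13, SE 1.18, edgeR adjusted p = 0.556), and it was called higher without OFBI replicate 2, at 1.70 (edgeR adjusted p = 0.0464, in a range of 0.0464 to 0.915 over 16 alternatives). Ryr2, the calcium release channel of the heart, which neurons also use, was not called, and its 7, 4 and 16 OFBI counts lay below, below and above the Naive level of 4.48 ± 0.289 CPM (SD, n = 3). Myl7, the atrial regulatory light chain, had 3, 0 and 0 counts after OFBI and 57, 18 and 20 in Naive corneas and was not called.

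Genes that heart and slow skeletal fibres share followed the same libraries. Myl3, the ventricular and slow essential light chain (chromosome 9, 110741861 to 110769798), had 43, 32 and 31 counts after OFBI and 90, 123 and 105 in the Naive replicates. Its groups did not overlap (17.5 ± 10.1 against 2.25 ± 0.441 CPM, SD, n = 3), with a log2 change of 2.92 (SE 0.57, edgeR adjusted p = 0.0212), and it passed without each OFBI library. The 4 others named here were at 0 in OFBI replicate 2. Myl2, the ventricular and slow regulatory light chain, had 63, 0 and 7 counts after OFBI and 39, 31 and 24 in Naive corneas (log2 change 3.73, SE 1.33, edgeR adjusted p = 0.0970). Pln, phospholamban, the brake on the calcium pump, had 45, 0 and 8 against 16, 21 and 32 counts. Tnnc1, the calcium-binding troponin C of heart and slow fibres, had 31, 0 and 12 against 42, 14 and 29, and Casq2, the calcium store protein of the heart, had 12, 0 and 4 against 29, 39 and 26. In each of the 4 the OFBI libraries 1 and 3 lay above every Naive library. In OFBI replicate 3 this rests on 7, 8, 12 and 4 counts, at about 4 counts per fragment. The groups overlapped through the 0 in OFBI replicate 2. The floor of that library, 3.84 CPM, lies above the Naive values of all 4, so its place against the Naive range cannot be told. Casq2 stood at 3.71 and 3.74 CPM in OFBI replicates 1 and 3, under that floor, so replicate 2 cannot be told from them either. Without OFBI replicate 2, Myl2, Pln, Tnnc1, Casq2, Actc1 and Mybpc3 were all called higher by edgeR and Tcap lost its call, so that 17 members were called higher, while 1367 of all 14922 genes then tested were. Mybpc3 reached the filter on low counts in no Naive library. It was tested there only because of its OFBI counts, so its call is a description only.

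Myh7, the beta heavy chain of heart and slow fibres, lies beside Myh6 on chromosome 14 (54970684 to 54994626) and did not follow it. It had 64, 15 and 4 counts after OFBI and 297, 279 and 243 in the Naive replicates. OFBI replicate 1, at 19.8 CPM, stood above the Naive range of 5.35 to 6.02 CPM and replicate 2, at 4.80 CPM, below it. OFBI replicate 3 had 4 counts where the Naive level would give 6.15, too few to place it against that range. The log2 change of Myh7 was 0.77 (SE 0.68, edgeR adjusted p = 0.482), and it turned to -0.41 without OFBI replicate 1. Both genes are close copies, and 22.6% of the 50-base windows and 11.4% of the 100-base windows of the Myh6 transcript also occur in Myh7, so part of their counts could be assigned to either.

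Among the 13 tested genes of the heart group and the heart and slow skeletal group, OFBI replicate 2 was the lowest OFBI library in 10, against 3 of the 20 skeletal and extraocular genes and 23.8% of all genes tested. OFBI replicate 3, the shallowest, was the lowest in 2 of the 13 and 8 of the 20, against 41.1% of all genes tested. This is a description of 3 libraries. Markers of hepatocytes, the main cells of the liver, were also higher after OFBI. Summed over 15 such genes they stood at 173, 200 and 1122 CPM in OFBI replicates 1, 2 and 3 and at 31.3 to 43.4 CPM in the Naive libraries. Most of the Naive sums came from Ttr, at 17.7 to 23.7 CPM, and Cps1, at 11.4 to 13.6 CPM. Alb alone gave 644 CPM of the sum in OFBI replicate 3. Above 0 were 10, 10 and 14 of the 15 in the OFBI libraries and 9, 12 and 14 in the deeper Naive libraries. OFBI replicate 2 was the lowest OFBI library in 4 of the 7 tested hepatocyte markers. Alb, serum albumin, had 197, 318 and 689 counts after OFBI, so OFBI replicate 2 held more Alb counts than replicate 1 while it held 4 counts of Myh6 against 240. The part of material from other tissues in the heart-type result was not tested.

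**Figure D2:**
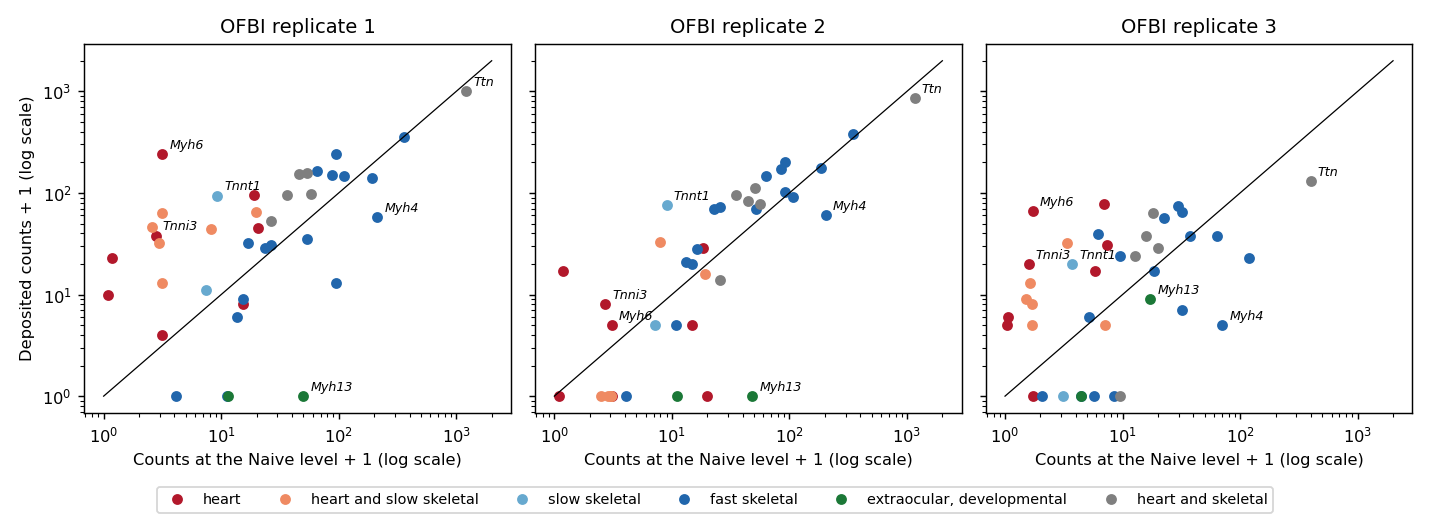
Deposited counts of the 40 genes in each OFBI library (vertical axis, log scale, 1 added) against the counts that the Naive level would give at that library's depth (horizontal axis, log scale, 1 added), coloured by group, with the line of equality. Myh6 and Tnni3 lie far above the line in OFBI replicates 1 and 3, Myh6 has 4 counts in replicate 2, and Myh4 lies below the line in all 3.

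Skeletal genes without a heart role went both ways. Of the 16 fast skeletal genes, 3 were called higher, Myh2, Tnni2 and Ryr1, and 2 lower, Myh4 and Mylk2, and all 16 reached the filter in every Naive library. Of all genes tested, 8.41% were called higher and 10.4% lower. The median log2 change of the 16 was 0.03, or 0.04 with Mylk2 set to its bound, against -0.20 over all genes tested. All OFBI libraries lay above all Naive libraries for 5 of the 16 and below them for 4, and the same held for 16.4% and 29.9% of all genes tested.

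Tnni2, the fast form of troponin I (chromosome 7, 142441808 to 142444410), had 162, 145 and 56 counts after OFBI and 1085, 816 and 946 in the Naive replicates. The OFBI libraries were close to each other, at 49.6 ± 3.00 CPM against 19.96 ± 2.07 CPM in Naive corneas (SD, n = 3). Its log2 change was 1.31 (SE 0.21, edgeR adjusted p = 0.0134). OFBI replicate 2 was the lowest OFBI library here too, by little, at 46.4 CPM against 50.1 and 52.4 CPM in replicates 1 and 3.

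Ryr1, the calcium release channel of skeletal muscle (chromosome 7, 29003344 to 29125179), had 148, 172 and 74 counts after OFBI and 1334, 1134 and 1320 in the Naive replicates. That is 56.7 ± 11.8 against 26.6 ± 2.33 CPM (SD, n = 3), with groups that did not overlap and a log2 change of 1.08 (SE 0.22, edgeR adjusted p = 0.0240). With the trend on GC and length taken out the log2 change was 0.71 and the call was lost (edgeR adjusted p = 0.135, the highest of 16 alternatives, of which the lowest was 4.01e-05).

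Other skeletal genes had small fitted changes that did not pass. Acta1, skeletal alpha-actin, had 146, 91 and 37 counts after OFBI and 1469, 1781 and 1603 in the Naive replicates, or 36.3 ± 8.13 and 34.2 ± 4.78 CPM (SD, n = 3), and its log2 change of 0.09 (SE 0.25) was smaller than its error. Atp2a1, the fast calcium pump of the sarcoplasmic reticulum and the fast skeletal gene with the highest level per kilobase in Naive corneas (31.7 ± 1.52 CPM per kb), had 357 and 382 counts in OFBI replicates 1 and 2, close to the 357 and 344 that the Naive level would give, but 22 in replicate 3 where 118 would be given. Its log2 change was -0.35 (SE 0.51, edgeR adjusted p = 0.686) and turned to 0.067 without OFBI replicate 3. A coding gene on the other strand, Rabep2, shares 21.9% of its exon bases. Tnnt3, the fast troponin T, and Mylpf, the fast regulatory light chain, had log2 changes of -0.03 (SE 0.38) and 0.11 (SE 0.63), and Mylpf had only 5, 20 and 5 counts after OFBI.

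Neb, the gene of nebulin, was uneven within the OFBI group, with 12, 100 and 6 counts where the Naive level would give 93.7, 90.5 and 31.0. OFBI replicate 2 thus lay near the Naive level, and replicates 1 and 3 lay below it, which is the reverse of the order of the heart genes. Myl1, the fast essential light chain, had 28, 69 and 0 counts against 22.4, 21.6 and 7.40 at the Naive level, and Casq1, the calcium store protein of fast fibres, had 8, 19 and 0 against 14.3, 13.8 and 4.74. OFBI replicate 2 was the highest OFBI library in all 3 of these genes. None of the 3 was called with all libraries, and Neb was called lower without OFBI replicate 2.

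Tnnc2, the fast troponin C, and Pvalb, the calcium buffer parvalbumin, which neurons also make, had all OFBI libraries above all Naive libraries without passing the test. Tnnc2 had 30, 72 and 23 counts after OFBI and 391, 400 and 334 in Naive corneas (log2 change 1.17, SE 0.45, edgeR adjusted p = 0.119), and 74.0% of its exon bases lie opposite those of Ube2c. Pvalb had 31, 27 and 38 against 218, 154 and 322 counts (log2 change 1.81, SE 0.69, edgeR adjusted p = 0.116). Actn3, the alpha-actinin of fast fibres, had 0, 4 and 0 against 167, 139 and 147 counts, which is 0.169 times the Naive level with a 95% counting interval of 0.00425 to 0.962, and it did not pass (edgeR adjusted p = 0.126). Mylk2, the kinase of skeletal myosin light chains, was called lower with 0 counts in every OFBI library (edgeR adjusted p = 0.0319), but its Naive level of 0.980 CPM is under the OFBI floor of 1.62 CPM over the group, so a difference was not detectable at this depth.

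Of the slow skeletal pair, Tnnt1, the slow troponin T (chromosome 7, 4504570 to 4516382), rose and Tnni1, the slow troponin I, did not pass. Tnnt1 had 93, 75 and 19 counts after OFBI and 146, 97 and 122 in the Naive replicates, or 23.5 ± 5.51 against 2.55 ± 0.413 CPM (SD, n = 3). Every OFBI library stood far above every Naive library, and the log2 change of 3.21 (SE 0.41, edgeR adjusted p = 0.00893) was 3.02 to 3.36 when an OFBI library was left out. Tnnt1 and Tnni3 are neighbours on chromosome 7, yet OFBI replicate 2 had 24.01 CPM of Tnnt1, between the other two OFBI libraries, and 2.24 CPM of Tnni3, the lowest of the 3. Tnni1 had 10, 4 and 0 counts against 105, 73 and 103 (log2 change -0.23, SE 0.78, edgeR adjusted p = 0.867), and its direction turned without OFBI replicate 2 or 3, to 0.045 and 0.14.

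The heavy chain genes of fast, developing and extraocular muscle described here, 6 in all, lie in 1 cluster on chromosome 11, in the order Myh3, Myh2, Myh1, Myh4, Myh8, Myh13, between 67078300 and 67371586. Myh3, the embryonic chain, is not among the 40 members and is given to complete the cluster. It had 337, 320 and 80 counts after OFBI and 1116, 1158 and 1045 in the Naive replicates and rose by a log2 change of 2.01 (SE 0.20, edgeR adjusted p = 0.00640). Myh2, the chain of fast oxidative IIa fibres (67171027 to 67197517), had 241, 201 and 64 against 1467, 1350 and 1304 counts and rose by 1.20 (SE 0.18, edgeR adjusted p = 0.0118). For both genes all OFBI libraries lay above all Naive libraries.

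Further along the cluster the values were lower after OFBI. Myh1, the IIx chain (67200052 to 67224575), had 139, 174 and 37 counts after OFBI and 2999, 2719 and 2653 in the Naive replicates, below the Naive range in all 3 OFBI libraries but not called (log2 change -0.39, SE 0.21, edgeR adjusted p = 0.257). Myh4, the IIb chain of the fastest fibres (67238029 to 67260446), had 57, 59 and 4 counts against 3568, 2943 and 2755, or 13.4 ± 8.40 against 64.9 ± 5.05 CPM (SD, n = 3). It fell by 2.17 on the log2 scale (SE 0.44, edgeR adjusted p = 0.0227), by 2.36, 2.44 and 1.84 without OFBI replicate 1, 2 or 3. The Naive level would have given 211, 203 and 69.6 counts of Myh4 in these libraries.

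At the end of the cluster stand the chains of developing and extraocular muscle. Myh8, the perinatal chain (67277124 to 67308634), was at 0 in every OFBI library and had 188, 123 and 150 counts in the Naive replicates (edgeR adjusted p = 0.0235). Its Naive level was 2.00 times the OFBI floor of 12 counts over the group. The 95% counting interval of its OFBI level against the Naive level ran from 0 to 0.624. Myh13, the extraocular chain (67321658 to 67371586), had 788, 663 and 702 counts in the Naive libraries, at 15.1 ± 0.706 CPM (SD, n = 3). At that level 48.9, 47.2 and 16.2 counts would have been found in the OFBI libraries, and 0, 0 and 8 were. Over summed libraries the OFBI level was 0.0712 times that of the Naive group, with a 95% counting interval of 0.00860 to 0.259. Its groups did not overlap, and it missed the threshold (log2 change -3.27, SE 1.38, edgeR adjusted p = 0.151). It was called lower without OFBI replicate 3, where the OFBI counts were 0, with limma-voom (adjusted p = 0.0331) and with counts divided by 4 (edgeR adjusted p = 0.0103), in a range of 0.00364 to 0.410 over 16 alternatives.

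The fitted changes thus ran from higher to lower along the cluster for the 5 genes with OFBI counts, from Myh3 at 2.01 through Myh2 at 1.20, Myh1 at -0.39 and Myh4 at -2.17 to Myh13 at -3.27. Neighbouring genes of the cluster share sequence. Of the 50-base windows of Myh1, 19.7% also occur in Myh2 and 10.5% in Myh4, and for Myh13 the share was 4.86% with Myh8 and lower with the others, so counts could in part be assigned to a neighbour. As a share of the summed level per kilobase of the 8 heavy chains, Myh4 made up 32.5 ± 1.67% in Naive corneas and 4.86 ± 3.10% after OFBI (SD, n = 3). Myh13 made up 7.53 ± 0.388% in Naive corneas and was listed at 0, 0 and 3.06% in OFBI replicates 1, 2 and 3. Myh6 made up 22.1, 0.513 and 24.7% in the OFBI libraries and 0.336 ± 0.260% in the Naive libraries. These shares sum to 100 in each library, so a rise of one chain lowers the share of the others.

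**Figure D3:**
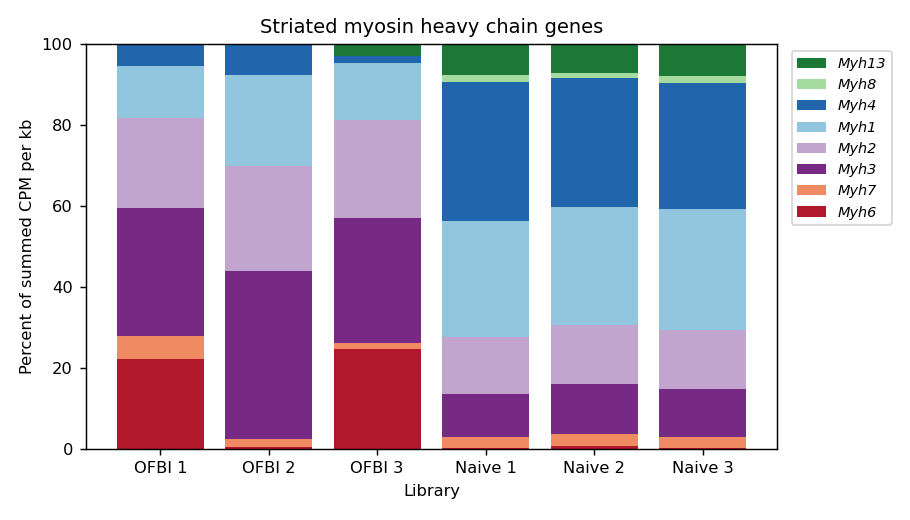
Share of each of 8 striated myosin heavy chain genes in their summed level per kilobase, in percent, in each of the 6 libraries. Myh4 (dark blue) holds 32.5% on average in the Naive libraries and at most 7.69% in an OFBI library, and Myh6 (red) holds 22.1% and 24.7% in OFBI replicates 1 and 3 and 0.513% in replicate 2.

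The genes that heart and skeletal muscle both use were called higher in 3 of 6 cases, and none was called lower, against 8.41% and 10.4% of all genes tested. Mb, the oxygen store myoglobin (chromosome 15, 77015487 to 77050670), had 157, 111 and 63 counts after OFBI and 831, 778 and 689 in the Naive replicates, or 47.7 ± 11.7 against 16.1 ± 0.837 CPM (SD, n = 3). Its log2 change was 1.55 (SE 0.26, edgeR adjusted p = 0.0147), and it passed without each OFBI library. Tcap, the telethonin that caps titin at the Z-disc, had 95, 94 and 23 counts against 381, 613 and 563 (log2 change 1.30, SE 0.34, edgeR adjusted p = 0.0403). Without OFBI replicate 1 or 2 Tcap did not pass (edgeR adjusted p = 0.0874 and 0.0736), and with the trend on GC and length taken out its change was 0.82 (edgeR adjusted p = 0.165, in a range of 0.00132 to 0.165 over 16 alternatives).

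Des, the intermediate filament desmin, which smooth muscle also uses, had 153, 82 and 37 counts after OFBI and 677, 584 and 727 in the Naive replicates. Its groups did not overlap, at 36.1 ± 10.6 and 14.0 ± 1.79 CPM (SD, n = 3), and its log2 change was 1.37 (SE 0.30, edgeR adjusted p = 0.0268), or 1.07 without OFBI replicate 1 (edgeR adjusted p = 0.0569). Ckm, muscle creatine kinase, had 97, 77 and 28 counts against 842, 769 and 902. All its OFBI libraries lay above all Naive libraries, by less than the test required (log2 change 0.61, SE 0.25, edgeR adjusted p = 0.139). Actn2, the alpha-actinin of heart and skeletal Z-discs, had 52, 13 and 0 counts against 395, 391 and 344, with OFBI replicate 1 above and replicate 2 below the Naive range. The floor of OFBI replicate 3, 11.2 CPM, lies above the Naive values of 7.58 to 8.43 CPM, so its place cannot be told.

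Ttn, the gene of titin and the member with the most counts, had 997, 859 and 130 counts after OFBI and 18312, 16903 and 17756 in the Naive replicates. All 3 OFBI libraries lay below the Naive range, at 308, 275 and 122 CPM against 362 to 391 CPM, and the log2 change of -0.65 (SE 0.31, edgeR adjusted p = 0.198) did not pass. With the trend on GC and length taken out it was 0.19 (edgeR adjusted p = 0.758, in a range of 0.0528 to 0.758 over 16 alternatives). Its transcript of 106824 bases is the longest of the 40.

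**Figure D4:**
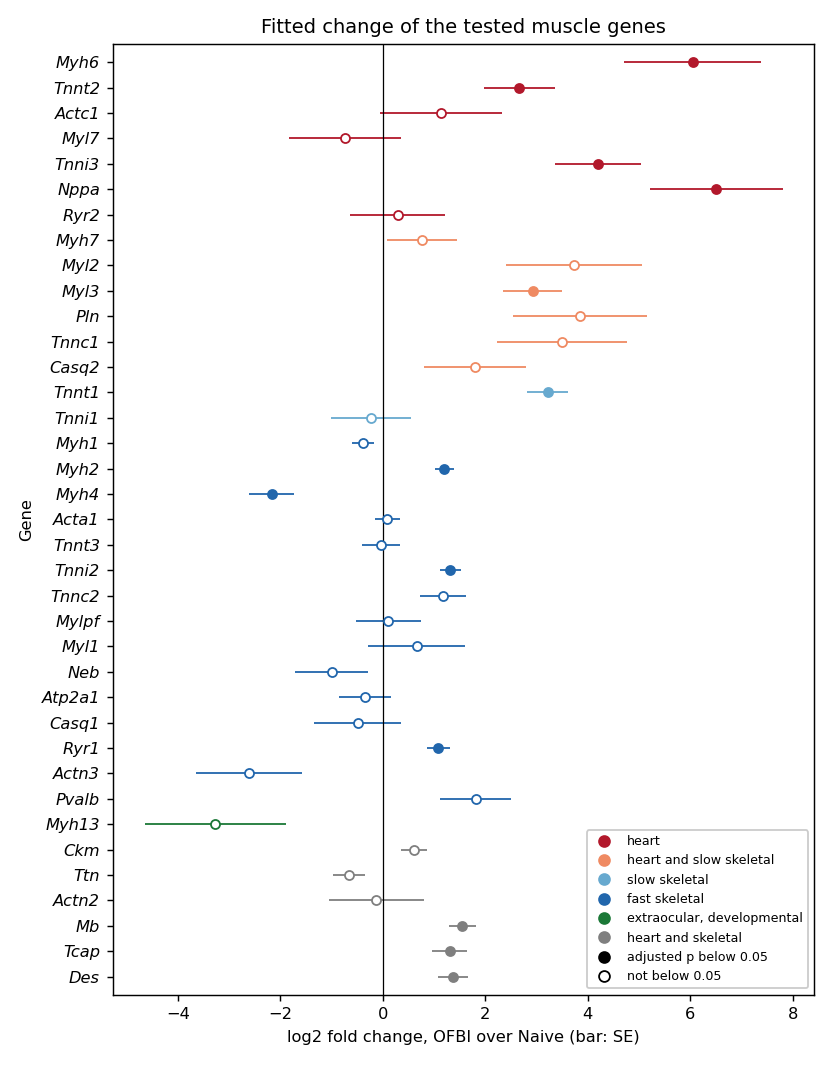
Fitted log2 fold change of OFBI over Naive with its SE for the 37 tested genes that had OFBI counts, coloured by group, with filled points for an edgeR adjusted p below 0.05. Heart genes such as Nppa (6.50) and Myh6 (6.04) lie to the right, skeletal genes lie on both sides of 0, and Myh4 (-2.17) and Myh13 (-3.27) lie to the left.

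Heart and skeletal genes were then set side by side as levels per kilobase of the longest transcript, summed over each group. The 8 heart genes summed to 68.6, 16.1 and 115 CPM per kb in OFBI replicates 1, 2 and 3 and to 11.7, 11.8 and 9.13 in the Naive replicates. OFBI replicate 2 thus lay close to the Naive libraries and the other two OFBI libraries far above them. The 20 skeletal and extraocular genes summed to 228, 262 and 224 CPM per kb after OFBI and to 167, 159 and 164 in Naive corneas, with OFBI replicate 2 the highest. Of the sum of both, the heart genes made up 23.2, 5.80 and 33.9% after OFBI, while the 3 Naive libraries had 6.58, 6.88 and 5.26%. The share in OFBI replicate 2 lay inside the Naive range, and those of replicates 1 and 3 lay above it, so that the groups overlapped. In the Naive libraries the heart share came mostly from Tnnt2 and Actc1, at 4.63 and 4.08 CPM per kb, while Myh6, Tnni3 and Nppa stood at 0.111, 0.601 and 0.0665. In OFBI replicate 2 the heart genes had 59 counts in all, of which Tnnt2 gave 28.

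**Figure D5:**
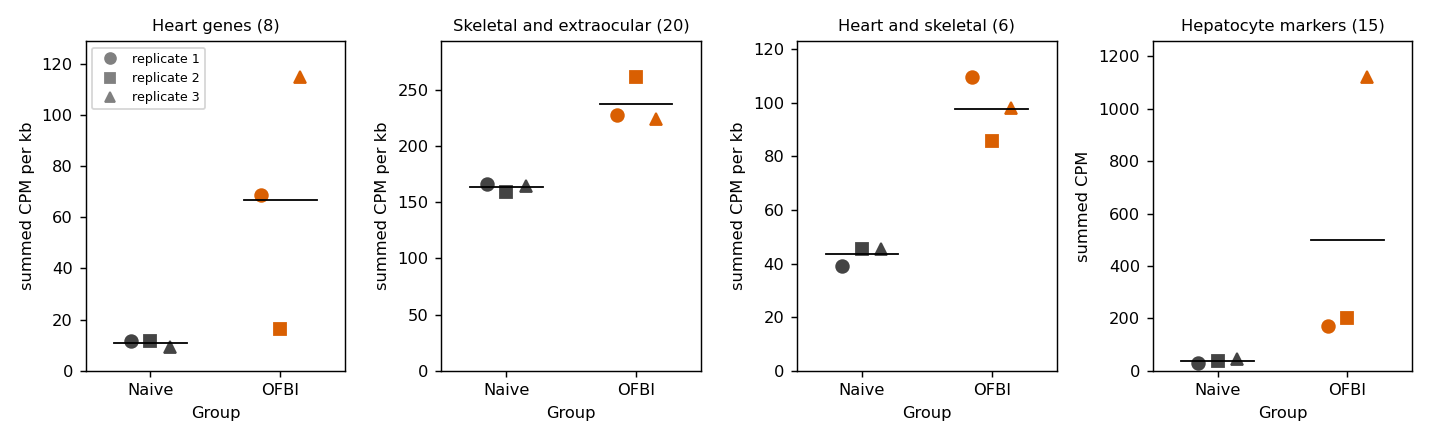
Summed level of the 8 heart genes, the 20 skeletal and extraocular genes and the 6 genes of heart and skeletal muscle (CPM per kb of transcript) and of 15 hepatocyte markers (CPM), with 1 point per library and a line at the group mean. In the first panel OFBI replicate 2 lies near the Naive libraries at 16.1 CPM per kb and replicates 1 and 3 lie at 68.6 and 115, and in the last panel OFBI replicate 3 lies highest at 1122 CPM.

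Further muscle genes were read from lists of known muscle genes. Of 18 further heart genes, 6 could be tested, none was called higher, and Tbx20 and Tbx5 were called lower with Naive levels of 1.21 and 0.674 CPM under the OFBI floor, where a difference was not detectable. The heart factors Nkx2-5, Gata4 and Hand2 were at 0 in all 6 libraries, and Nppb and Ankrd1 were at 0 in all OFBI libraries. Summed over these 18, the OFBI libraries had 63, 54 and 13 counts, or 19.5, 17.3 and 12.2 CPM against 10.1 to 11.9 CPM in the Naive libraries. OFBI replicate 2 was not the lowest in this sum. Hrc alone gave 12.1, 12.5 and 0 CPM of it in OFBI replicates 1, 2 and 3, so the order of the libraries rests mostly on that gene. Of 22 further skeletal genes, 18 were tested, 2 were called higher, Myh3 and Trim72, a membrane repair protein (log2 change 1.51, SE 0.32, edgeR adjusted p = 0.0252), and 3 lower. Of all genes tested, 8.41% were called higher and 10.4% lower. The 3 skeletal genes called lower were Pgam2, Jph1 and Sypl2, all at 0 in every OFBI library. Pgam2, muscle phosphoglycerate mutase, was at least 1.67-fold lower against the floor and Jph1, a junctophilin, at least 1.76-fold, and the Naive level of Sypl2 was under the floor. Of 20 further genes of both muscle types, 18 were tested and none was called by edgeR, while 3 were higher and 1 lower at an unadjusted p below 0.05, as were 14.4% and 18.5% of all genes tested. The smallest p-values of that list belonged to Fabp3, a fatty acid carrier of heart and slow fibres, with 26, 0 and 19 counts after OFBI and 42, 20 and 36 in Naive corneas (log2 change 3.56, SE 1.32, edgeR adjusted p = 0.108), and to Smpx, at 0 in every OFBI library and under the floor in Naive corneas. Fabp3, like Myl2 and Pln, was at 0 in OFBI replicate 2 and above the Naive range in the other two OFBI libraries.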

How the data were processed

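RNA-seq tables of 6 corneal libraries, 3 OFBI and 3 Naive, were used. For each library the authors deposited estimated counts of all genes as whole numbers, not scaled for depth. Per the submitters' processing notes, GRCm38, FastQC, HISAT2, StringTie and DESeq2 were used, with no version, role or order, and per the labels' protocols the library kit was stranded. Not given in the sources used here: annotation release, strand setting and how multimapping reads were handled. About 4 counts per fragment is an inference from the values: 39.4% to 50.4% of the values between 1 and 40 were multiples of 4. Rows that shared a symbol (64 rows, 31 symbols, no member among them) were summed.

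The tests across all genes used edgeR 4.0.16 under R 4.3.3 (filterByExpr, here 0.441 CPM in 3 libraries, TMM, quasi-likelihood fit on group alone, Benjamini-Hochberg adjustment, two-sided, threshold 0.05). The SE is the log2 fold change divided by the square root of F. CPM values are scaled by TMM. Levels per kilobase use the longest coding transcript of GENCODE mouse release 21, whose coordinates are 1-based on GRCm38. Counting intervals are exact (95%) on counts divided by 4. The alternatives were DESeq2 1.42.0, limma-voom (limma 3.58.1), other scaling and filters, a replicate block, counts divided by 4, thinned Naive libraries and leaving out each library. Removal of a spline trend on GC content and transcript length, and DESeq2 without each library, were added after the data were seen. Libraries of 1 group differed by more than sampling noise in every pair (mean chi-square per gene 4.43 to 15.4). The procedure was tested on simulated data.

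The members and lists were chosen with earlier results of these data known. Every member is accounted for, with full statistics for called members and the 3 most abundant tested ones per group. The 2 genes with the smallest p are named from each other list. Other values were chosen after they were seen.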

Additional observations from a re-analysis of the deposited data

How the results depend on the processing

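Leaving out one library changed the counts most. By edgeR 0 to 1611 genes were then higher and 0 to 2065 lower, and among the members 0 to 17 were higher and 0 to 4 lower, with 0 members whenever a Naive library was left out. With a replicate block, 540 genes were higher and 253 lower, and 3 and 1 members. The replicate numbers did not pair the samples: the deviations of same-numbered libraries from their group means had correlations of -0.01, -0.02 and 0.01 for numbers 1, 2 and 3. With a GC and length trend removed, 403 genes were higher and 213 lower, and 7 members were higher. DESeq2 called 1854 genes higher, and with no filter 910 were lower. With the Naive libraries thinned to OFBI replicate 1 in units of 4 counts, 484 genes fell, 7 members higher and 1 lower, with 29 members left to test. The 7 were Mb, Myh2, Nppa, Ryr1, Tcap, Tnni2 and Tnnt1. Of the heart-type genes called higher at full depth only Nppa was among them, while Myh6, Tnnt2, Tnni3 and Myl3 were no longer called or no longer tested. The call of Nppa is a description only, as stated above. The cause was not tested. The mean heart share in Naive corneas, 6.24%, was 3.91% without division by length, 9.04% with the heart and slow skeletal genes added and 4.39% with union exon lengths, and that of OFBI corneas moved by less than its SD of 14.2 percentage points. Directions turned for Actc1 with limma-voom (-0.29), Myh7 without OFBI replicate 1 (range over left-out libraries -0.41 to 1.121), Atp2a1 without OFBI replicate 3 (-0.70 to 0.067), Tnni1 without OFBI replicate 2 (0.045) or 3 (0.14, range -1.15 to 0.14) and, with the trend removed, Ttn (0.19) and Srf (-0.12), none of which was called with all libraries. Library size as the only scaling moved the median over all genes from -0.20 to -0.40 on the log2 scale. Depth limits every OFBI value: 12 counts are 1.62 CPM over the OFBI group.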

Other observations

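Genes of smooth muscle, which lines vessels and the iris, were present in all libraries, with a summed level over 10 genes of 199 to 229 CPM in the Naive and 248 to 280 CPM in the OFBI libraries. Most of this sum came from Mylk, at 124 to 153 CPM in the Naive and 165 to 200 CPM in the OFBI libraries. Of 8 tested, Tagln, an actin-binding protein of smooth muscle, rose (log2 change 1.74, SE 0.29, edgeR adjusted p = 0.0147) and none was called lower. Mylk, the kinase of smooth muscle myosin light chains, had a log2 change of 0.40 (SE 0.15, edgeR adjusted p = 0.111). Fitted changes of the 8 were positive for 5 and negative for 3. At an unadjusted p below 0.05, 3 were higher (Tagln, Mylk and Synpo2) and none lower, against 14.4% and 18.5% of all genes tested. Synpo2 had a log2 change of 1.10, Cnn1 one of 2.05, Acta2 one of -0.90 and Myh11 one of -0.57. Des, which smooth muscle also uses, was called higher in the same libraries, and the part of smooth muscle in that was not tested.

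The factors that specify skeletal muscle were near or at 0. Myod1, Myf5, Myog and Pax7 had no count in any library, and Myf6 had 41, 20 and 16 counts in the Naive libraries and 0 in the OFBI libraries, a Naive level under the OFBI floor. Of 4 tested factors none was called by edgeR. Srf, which binds the CArG box, had a log2 change of 0.76 (SE 0.22, edgeR adjusted p = 0.0536), each OFBI library lying above the Naive range, and -0.12 with a GC and length trend removed. Mef2a had one of -0.81 (SE 0.38, edgeR adjusted p = 0.185).

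Markers of other sources did not move as one. Of 15 hepatocyte markers 7 were tested, and 4 of these reached the filter on low counts in fewer than 3 Naive libraries, so the 6 called higher are a description only. Alb had a log2 change of 7.10 and Apob one of 6.41. Of 5 red cell genes Hba-a1 fell by 1.85 on the log2 scale (edgeR adjusted p = 0.0233), and Hba-a2 had a log2 change of -1.75 and was not called. Of 6 tested neuron genes, Gad1 was called lower at a Naive level below the floor of the OFBI group, and Nefl, a neurofilament, had 4, 0 and 0 counts after OFBI against 185, 149 and 173 (edgeR adjusted p = 0.105). Nefm, another neurofilament, had a log2 change of 0.92 and Slc17a7, a glutamate transporter of neurons, one of 0.61, neither of them called. Snap25 and Syt1, also on the neuron list, each had a log2 change of -1.52 and were not called. Fitted changes of the 6 were positive for 2 and negative for 4. Ryr2 and Pvalb, which neurons also use, had log2 changes of 0.29 and 1.81 in these libraries. Of the 12 corneal genes, the epithelial keratins Krt14, Krt5 and Krt12 rose by 1.81, 1.76 and 1.35. Slc4a11, Dcn, a stromal proteoglycan, and Col8a1, a collagen of the endothelial basement membrane, had log2 changes of -2.29, -1.46 and -0.81 and were called lower. Col8a2, another collagen gene on that list, had a log2 change of 0.33 and was not called. Fitted changes of the 12 were positive for 6 and negative for 6.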
